A study of Mus musculus with 3 samples.

Results

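The interferon-stimulated genes are genes whose transcription rises when an interferon binds its receptor, and 39 of them were followed here, matched by gene symbol. All 39 were found among the 33696 features of both tendon libraries and 38 among the 35980 features of the ganglion library, where Ifi213 was not matched. Type I interferons bind a receptor of IFNAR1 and IFNAR2, whose kinases JAK1 and TYK2 activate transcription factors. A complex that holds STAT2 and IRF9 then binds the interferon-stimulated response element in the promoters of these genes. The products bind foreign nucleic acid, modify proteins and block the entry, copying or release of viruses, and many cells hold a low tonic level of them.

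Tendon and ganglion cells of C57BL/6 mice were profiled in 3 droplet libraries (10x Genomics), in which a barcode marks the droplet and a unique molecular identifier (UMI) marks each captured transcript. For the neurectomy library, Achilles tendons were taken from 5 mice in which the sural nerve, which carries sensory fibres of the lower leg, had been cut 1 week ahead of a 4 week immobilisation in dorsiflexion. For the sham library, 5 mice had the nerve exposed and left uncut, with the same 4 weeks of immobilisation, so both tendon groups carried that load. The ganglion library pooled 18 dorsal root ganglia (DRG, spinal levels L4 to S1) of 6 mice, 4 weeks after 5 µL of the vector AAV-PHP.S-tdTomato entered the left Achilles tendon sheath at 4 weeks of age. A label of the same sample calls the vector a lentivirus instead. The labels do not say how mice were combined and differ on whether ganglia of the other side were included, and there was no ganglion library without vector.

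After filtering, 21992 neurectomy, 25306 sham and 22384 ganglion barcodes remained of 25067, 32951 and 23566, from libraries of 79750679, 133570956 and 239515477 UMIs. Barcodes were placed in classes by marker genes, each named "-like", and 51.2%, 34.9% and 22.0% stayed without a class. The tendon libraries shared 569 barcode sequences, and the ganglion library shared 123 with the neurectomy and 135 with the sham library. Xist, transcribed from the inactive X chromosome, without Y-linked transcripts marked 63.0% of barcodes after neurectomy and 43.7% after sham. Y-linked transcripts without Xist were found in 0.0500% and 8.01%, so the sham pool was mixed and the neurectomy pool nearly all of the first kind, and in the ganglia 62.4% were of the second kind. With 1 library in each group no difference between groups could be tested, and all intervals are 95% intervals for counting error only. Levels are UMIs of the genes per 1000000 UMIs of the class (CPM) and were not corrected for transcript length, so levels are compared between classes and libraries, not between genes. The tendon and ganglion tables have different gene annotations, and their levels are set side by side only.

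RefSeq windows of 300 bases around the gene start (GRCm38.p6, 250 bases before to 50 after) were matched by symbol for 30 of the 39 genes. The core of the response element, GAAANNGAAA on either strand, lay in the windows of 19 of these 30 genes (63.3%) against 3.99% of 27025 genes. Cores lay in 5 of 5 interferon-inducible GTPase genes and 3 of 4 IFIT genes, but in 3 of 8 antiviral effectors. A match describes letters and was not tested for binding. The 6 windows shown were taken only from windows with a core. They belong to genes whose levels lay far apart between the tendon libraries or were high in ganglion classes. Other such genes, among them Ifi44, Oasl2, Irf7 and Cmpk2, had a window without a core and are not shown. The windows run 5′ to 3′ along the gene, and capitals mark each core.
Ifit1, chr19:34640639-34640938, plus strand: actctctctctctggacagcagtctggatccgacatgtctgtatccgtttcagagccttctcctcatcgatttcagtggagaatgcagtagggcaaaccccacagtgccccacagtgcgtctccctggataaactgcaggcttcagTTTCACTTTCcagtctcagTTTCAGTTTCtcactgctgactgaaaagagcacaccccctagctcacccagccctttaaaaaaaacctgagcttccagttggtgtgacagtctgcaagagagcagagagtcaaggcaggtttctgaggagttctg
Ifit3, chr19:34583279-34583578, plus strand: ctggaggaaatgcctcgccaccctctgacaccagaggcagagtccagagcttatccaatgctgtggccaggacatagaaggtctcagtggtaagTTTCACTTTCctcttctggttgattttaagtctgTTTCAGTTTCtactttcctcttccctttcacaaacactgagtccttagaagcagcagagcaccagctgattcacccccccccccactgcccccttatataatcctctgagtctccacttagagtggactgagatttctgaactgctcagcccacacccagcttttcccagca
Ifit3b, chr19:34607707-34608006, plus strand: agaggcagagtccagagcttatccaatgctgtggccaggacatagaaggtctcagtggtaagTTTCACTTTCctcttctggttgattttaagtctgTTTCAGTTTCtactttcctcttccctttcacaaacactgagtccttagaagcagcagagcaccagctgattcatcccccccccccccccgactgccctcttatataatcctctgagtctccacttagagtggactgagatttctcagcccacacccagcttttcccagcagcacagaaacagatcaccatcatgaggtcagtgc
Isg15, chr4:156200769-156201068, minus strand: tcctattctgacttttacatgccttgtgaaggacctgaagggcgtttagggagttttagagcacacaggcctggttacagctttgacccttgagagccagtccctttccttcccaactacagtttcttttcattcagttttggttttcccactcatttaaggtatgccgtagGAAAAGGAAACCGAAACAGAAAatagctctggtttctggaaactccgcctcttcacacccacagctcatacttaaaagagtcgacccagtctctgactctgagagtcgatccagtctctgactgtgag
Rsad2, chr12:26456403-26456702, minus strand: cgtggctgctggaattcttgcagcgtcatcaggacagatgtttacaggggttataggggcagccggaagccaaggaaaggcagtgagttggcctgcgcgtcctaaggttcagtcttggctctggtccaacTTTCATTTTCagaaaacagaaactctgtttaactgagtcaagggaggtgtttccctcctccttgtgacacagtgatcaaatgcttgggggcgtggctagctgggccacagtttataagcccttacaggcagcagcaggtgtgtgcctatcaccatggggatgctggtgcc
Gbp2, chr3:142620413-142620712, plus strand: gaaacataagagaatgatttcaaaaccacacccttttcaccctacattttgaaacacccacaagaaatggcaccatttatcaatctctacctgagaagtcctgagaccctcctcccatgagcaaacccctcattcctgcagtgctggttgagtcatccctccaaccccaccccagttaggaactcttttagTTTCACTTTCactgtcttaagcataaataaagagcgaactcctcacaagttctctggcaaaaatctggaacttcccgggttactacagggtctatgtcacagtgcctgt
In Isg15 the 3 cores overlap in a single run, and in Ifit1, Ifit3 and Ifit3b the cores lie apart. Shifted by 32 bases and compared without gaps, the windows of Ifit3 and Ifit3b were identical at 201 of 268 bases (75%). A run of c differs in length between them, so bases after it were compared out of register. The windows lie mostly before the gene start and say little on transcripts. Reads of genes with close copies may be divided or dropped in counting, so separate levels within the IFIT, OAS, PYHIN and GBP families are uncertain. Neighbours on RefSeq's gene list were Rsad2 and Cmpk2, Ifit2 and Ifit3, Gbp7 and Gbp3, Oasl2 and Oasl1, and Oas2 and Oas3.

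Summed over all barcodes the genes stood at 542 CPM after neurectomy and 724 CPM after sham, a ratio of 0.749 (0.741 to 0.758). Classes were ranked where both libraries held 100 barcodes or more, which left 9. Of these the ratio was lowest in tenocyte-like barcodes, the tendon's matrix-producing cells, at 218 CPM (211 to 225, 2606 barcodes) and 542 CPM (536 to 549, 7471 barcodes), or 0.401 (0.388 to 0.415). Stromal fibroblast-like barcodes had 421 and 812 CPM, a ratio of 0.518 (0.497 to 0.540), and lymphatic endothelial-like barcodes had 522 and 835 CPM (0.625). Pi16 fibroblast-like barcodes had 545 and 671 CPM (0.813) and macrophage-like barcodes 1521 and 1729.8 CPM, a ratio of 0.879 (0.856 to 0.903). Blood endothelial-like barcodes had 1245 and 1186 CPM, a ratio of 1.05 (1.01 to 1.09), which went below 1 without barcodes of a second gate (0.980) and against sham barcodes with Xist only (0.849). Mural-like (936 and 923 CPM), Schwann-like (568 and 579 CPM) and synovial lining-like barcodes (453 and 427 CPM) had ratios of 1.01, 0.981 and 1.06. Among these 9 classes macrophage-like, blood endothelial-like and mural-like barcodes led in this order in both libraries, whereas the lowest was tenocyte-like after neurectomy and synovial lining-like after sham. Neighbours in this order whose counting intervals overlapped were, after neurectomy, Schwann-like with Pi16 fibroblast-like, Pi16 fibroblast-like with lymphatic endothelial-like and synovial lining-like with stromal fibroblast-like barcodes, and after sham, lymphatic endothelial-like with stromal fibroblast-like and Schwann-like with tenocyte-like barcodes. Classes under 100 barcodes in a library were not ranked, among them dendritic-like (25 and 36 barcodes, 1475 and 1475 CPM) and T and NK-like ones (28 and 37 barcodes, 582 and 1503 CPM).

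**Figure D1:**
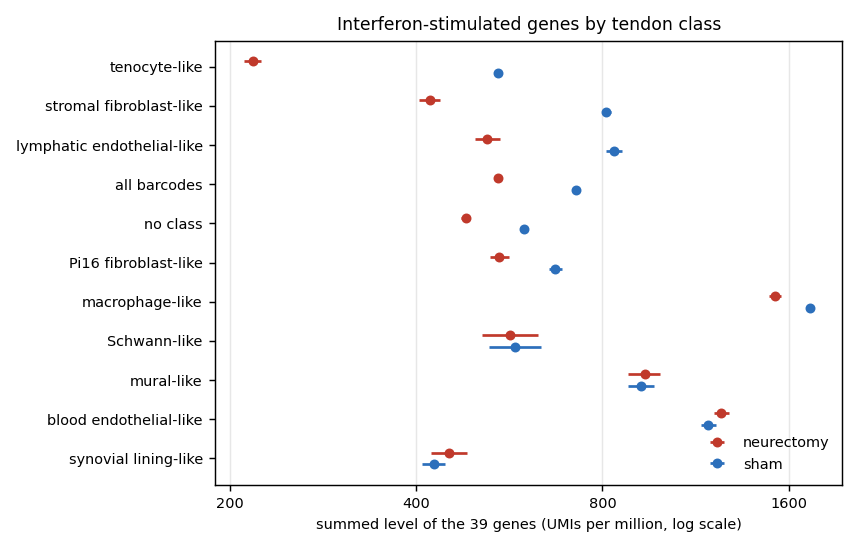
Summed level of the 39 genes (CPM, log axis) in the tendon classes, for the neurectomy and sham libraries. Points are the single library of each group and bars 95% counting intervals; tenocyte-like barcodes lie farthest apart, at 218 and 542.

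The share of barcodes with 3 or more of the genes depends on depth, so it was also taken with each barcode thinned to 1000 UMIs. Unthinned it was 13.7% of neurectomy and 15.3% of sham tenocyte-like barcodes, with median depths of 1939 and 1348 UMIs. Thinned it was 1.09% (0.682 to 1.64) and 4.25% (3.72 to 4.83), with 580 and 2267 shallower barcodes left out. Lymphatic endothelial-like barcodes had thinned shares of 1.47% and 6.55%, and stromal fibroblast-like barcodes 1.74% and 4.22%. Those of macrophage-like barcodes, 11.4% (9.66 to 13.3) and 15.0% (13.2 to 17.0), had overlapping intervals, and blood endothelial-like barcodes had 10.4% and 10.2%. Over all barcodes the thinned shares were 3.73% and 5.93%, against 15.7% and 20.8% unthinned.

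**Figure D2:**
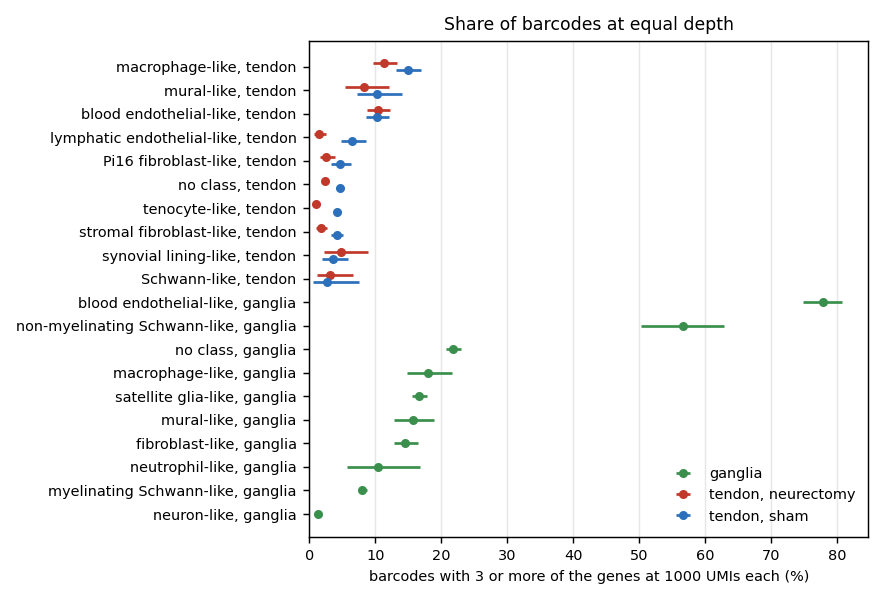
Share of barcodes (percent) with 3 or more of the genes at 1000 UMIs a barcode, by class and library. Points are shares and bars exact 95% binomial intervals; in the ganglia blood endothelial-like (77.9%) and non-myelinating Schwann-like barcodes (56.6%) had the highest shares.

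Few barcodes held much of the sham level. Barcodes with 8 or more of the genes were 2.81% (210) of sham tenocyte-like barcodes, held 63.6% of the class's UMIs of these genes and stood at 3439 CPM. After neurectomy they were 1.07% (28), held 14.0% and stood at 688 CPM. Such barcodes were deep, so they also held 10.0% of all UMIs of the class after sham and 4.42% after neurectomy. Their median depths were 21578 UMIs after sham and 26178 after neurectomy, against 1348 and 1939 for the whole class. The other tenocyte-like barcodes stood at 196 CPM after neurectomy and 219.7 CPM after sham. Among stromal fibroblast-like barcodes those with 8 or more were 27 and 144, and the others stood at 373 and 316 CPM. As the same counts chose these barcodes, the values are a description. Tenocyte-like barcodes made up 5.02% of the 558 barcodes with 8 or more genes after neurectomy and 18.0% of the 1164 after sham, and macrophage-like barcodes 25.8% and 23.8%. Of all barcodes, tenocyte-like ones were 11.85% after neurectomy and 29.5% after sham, and macrophage-like ones 8.29% and 7.80%. In both libraries the tenocyte-like part thus lay below its share of all barcodes and the macrophage-like part above it.

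Gene by gene, 35 of the 39 reached 50 UMIs over both libraries in tenocyte-like barcodes. Of these 21 were at least 2-fold lower after neurectomy and 0 at least 2-fold higher, beside 1.36% and 2.43% of the 14503 genes tested. All 35 lay below the sham level, 34 with an interval that left out equality, and their median log2 ratio was -1.40 against 0.06 for all genes. Lowest was Mx1, a dynamin-like GTPase, with 1 UMI after neurectomy and 116 after sham. Rsad2 (viperin, an antiviral enzyme) had 0.910 and 20.6 CPM, a log2 ratio of -4.50. Isg15, a ubiquitin-like modifier, had 1.19 and 14.7 CPM (-3.62). All 3 were scarce after neurectomy, where Rsad2 rested on 16 and Isg15 on 21 UMIs. Ifit1, which binds foreign RNA, had 3.70 and 30.4 CPM (-3.04), and Ifit3 had 7.62 and 58.0 CPM (-2.93). The highest ratios were those of Zbp1, a sensor of Z-form nucleic acid, at 7.34 and 8.71 CPM (-0.25), Ifit2 at 20.6 and 25.5 CPM (-0.31) and Gbp2 at 6.26 and 7.90 CPM (-0.34). Ifit2 thus lay apart from the other IFIT genes here. Within the tenocyte gate the macrophage markers stood at 78.3 CPM after neurectomy and 103 CPM after sham, blood endothelial markers at 84.0 and 70.6 CPM and tenocyte markers at 26652 and 24084 CPM, and their part in the result was not tested.

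Stromal fibroblast-like barcodes had 16 of 33 genes at least 2-fold lower and 0 higher, beside 1.75% and 2.45% of all genes, with a median log2 ratio of -0.90 against 0.01. The lowest were Rsad2 (0.460 and 25.1 CPM), Ifit3b (0.767 and 20.3 CPM), Mx1 (0.153 and 3.78 CPM), Ifi44 (0.307 and 5.32 CPM) and Ifit1 (4.45 and 47.8 CPM), after neurectomy and sham in turn. The highest were Gbp2 at 27.5 and 19.0 CPM (log2 ratio 0.53), Ifi204 at 57.5 and 49.1 CPM (0.23) and Gbp3 at 5.52 and 5.77 CPM (-0.06). Tenocyte markers in this gate stood at 8979 CPM after neurectomy and 13060 CPM after sham, all 9 detected in both. Blood endothelial markers, all 9 detected, stood at 98.2 and 56.5 CPM, and macrophage markers, all 8 detected, at 91.6 and 82.8 CPM. Their part in the result was not tested.

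Macrophage-like barcodes differed in both directions. Of 38 genes 14 were at least 2-fold lower after neurectomy and 0 higher, beside 1.12% and 2.04% of all genes, with a median log2 ratio of -0.57. Ifi213, a PYHIN gene, was lowest at 1.69 and 17.8 CPM, followed by Ifit3 at 7.52 and 36.2 CPM, Mx1 at 4.13 and 19.6 CPM, Ifit3b at 2.44 and 11.0 CPM and Rsad2 at 10.9 and 35.9 CPM. Highest were Oasl1 at 65.6 and 41.7 CPM (log2 ratio 0.65), Ifih1, a sensor of double-stranded RNA, at 189 and 122 CPM (0.63) and Ifi203 at 170.1 and 117 CPM (0.54), each with an interval above equality but under 2-fold. Blood endothelial markers in the macrophage gate stood at 168 CPM after neurectomy and 117 CPM after sham, and tenocyte markers at 2278 and 2257 CPM. Their part was not tested.

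In blood endothelial-like barcodes 0 of 29 genes were 2-fold lower and 0 higher, beside 0.54% and 1.15% of all genes, with a median log2 ratio of 0.05. Ifit3 was lowest at 13.7 and 25.6 CPM (-0.90), then Lgals3bp (-0.47), Herc6 (-0.42), Cmpk2 (-0.34) and Ifit1 (-0.32). Parp14, an ADP-ribosyltransferase, was highest at 122 and 78.5 CPM (0.63), then Usp18 (0.50) and Mx2 (0.47). Rsad2, far lower after neurectomy in the stromal classes, stood at 55.6 and 60.2 CPM here. Macrophage markers in this gate stood at 169.7 CPM after neurectomy and 301 CPM after sham, and tenocyte markers at 2682 and 3160 CPM. The part of either was not tested. Over all barcodes 11 of 39 genes were 2-fold lower and 0 higher, beside 1.2% and 3.09% of all genes.

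**Figure D3:**
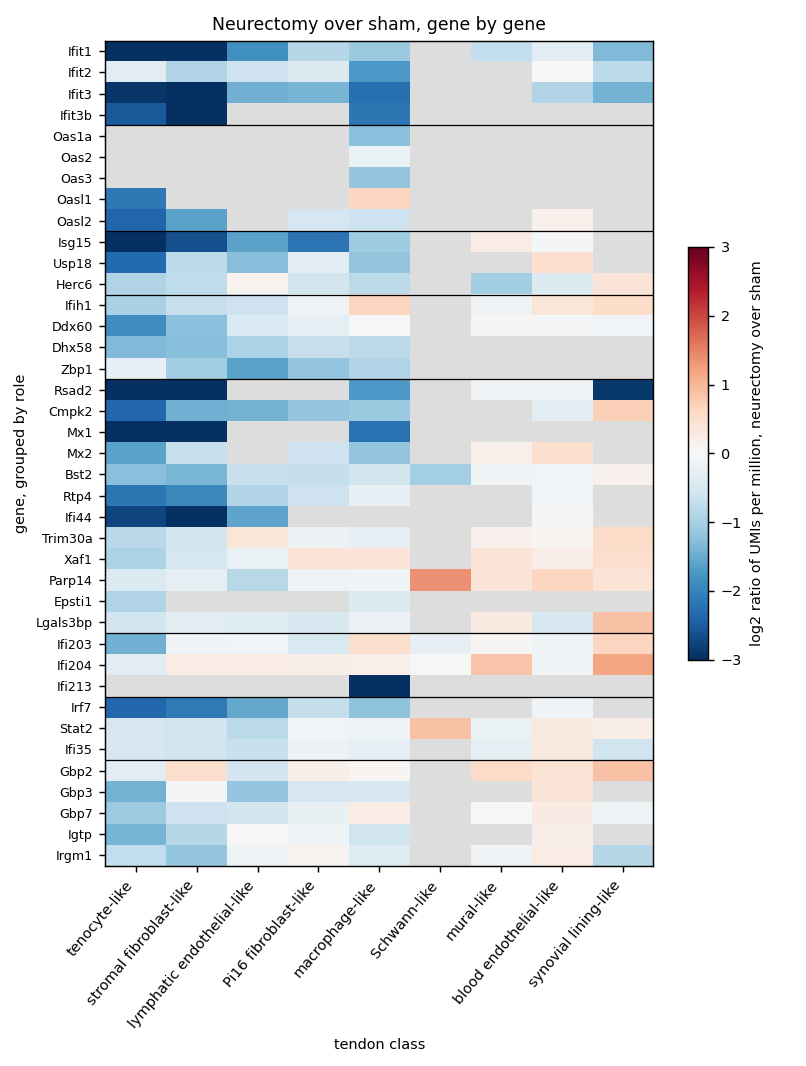
Log2 ratio of CPM, neurectomy over sham, for each of the 39 genes (rows, by role) in each tendon class (columns). Colours stop at -3 and 3 and grey marks genes under 50 UMIs over both libraries; the tenocyte-like median was -1.40 and the blood endothelial-like median 0.05.

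Of the roles the IFIT genes lay farthest apart over all tendon barcodes, with a ratio of 0.342 (0.328 to 0.356). Ifit3 stood at 7.30, 41.8 and 20.0 CPM in the neurectomy, sham and ganglion libraries, Ifit2 at 19.4, 25.8 and 23.6 CPM, Ifit1 at 8.38, 29.2 and 62.6 CPM and Ifit3b at 2.29, 12.4 and 5.68 CPM. The family ratio was 0.266 in tenocyte-like, 0.193 in stromal fibroblast-like, 0.301 in macrophage-like and 0.729 (0.607 to 0.874) in blood endothelial-like barcodes, so it lay below 1 in all 4.

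OAS genes encode oligoadenylate synthetases, which switch on RNase L, and related proteins. Their ratio was 0.211 (0.159 to 0.276) in tenocyte-like and 0.943 (0.855 to 1.04) in macrophage-like barcodes. Oasl2 stood at 8.80, 15.4 and 38.8 CPM in the same order of libraries, Oasl1 at 6.22, 5.18 and 3.64 CPM and Oas2 at 2.06, 2.67 and 0.228 CPM, while Oas1a (1.09, 1.82 and 1.24 CPM) and Oas3 (0.758, 1.78 and 0.241 CPM) were low. The ISG15 system attaches and removes the modifier ISG15, and its ratio was 0.299 (0.259 to 0.344) in tenocyte-like and 0.890 (0.772 to 1.03) in blood endothelial-like barcodes. Isg15 had 9.33, 22.6 and 118 CPM, Herc6, its ligase in mice, 15.6, 21.4 and 26.0 CPM, and Usp18, which removes ISG15, 5.23, 9.73 and 3.90 CPM.

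Nucleic acid sensors had a ratio of 0.486 (0.432 to 0.545) in tenocyte-like but 1.21 (1.13 to 1.28) in macrophage-like barcodes. Ifih1 had 29.6, 26.1 and 19.4 CPM, the helicase gene Ddx60 17.2, 22.6 and 4.71 CPM, Zbp1 5.89, 9.73 and 2.37 CPM and Dhx58 3.24, 5.90 and 1.76 CPM. PYHIN genes, some of whose products sense DNA, were the only role with a ratio above 1 over all barcodes, 1.18 (1.15 to 1.22). The ratio was 0.544 in tenocyte-like, 1.19 in macrophage-like and 2.04 (1.71 to 2.44) in synovial lining-like barcodes. Synovial lining-like barcodes held 229 of the role's 8626 UMIs after neurectomy, and unclassed barcodes, with a ratio of 1.06, held 3765. Tenocyte-like barcodes, at 14.9 and 27.4 CPM for this role, were 11.85% of neurectomy and 29.5% of sham barcodes. The part of class make-up in the 1.18 was not tested. Ifi204 stood at 67.8, 50.6 and 4.78 CPM and Ifi203 at 42.8, 41.3 and 26.7 CPM, and Ifi213 at 0.334 and 1.86 CPM in tendon. The synovial lining gate was unlike in the 2 tendon libraries. After neurectomy and sham 26.5% and 62.0% of its barcodes passed a second gate, with median depths of 1645 and 7872 UMIs. Tenocyte markers in its barcodes with Xist only stood at 5724 and 11463 CPM. The part of these differences in the ratio of 2.04 was not tested.

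The 12 antiviral effectors had a ratio of 0.408 (0.385 to 0.432) in tenocyte-like and 1.07 (1.00 to 1.14) in blood endothelial-like barcodes. Bst2 (tetherin), which holds budding virus at the cell surface, had 45.5, 78.4 and 60.2 CPM, Parp14 33.7, 30.5 and 32.1 CPM and Lgals3bp, a secreted glycoprotein, 18.5, 23.0 and 11.6 CPM. The other 9 ran from 0.540 (Mx1) to 19.0 CPM (Trim30a) after neurectomy, from 3.71 to 19.4 CPM for the same genes after sham, and from 0.405 (Mx1) to 47.2 CPM (Rsad2) in the ganglia. Transcriptional mediators had a ratio of 0.602 (0.548 to 0.661) in tenocyte-like barcodes. Stat2, part of the complex on the response element, had 28.1, 32.3 and 47.2 CPM, Ifi35 18.6, 20.5 and 35.4 CPM and Irf7, which amplifies type I interferon, 4.97, 12.1 and 8.23 CPM. Irf7 had the lowest tenocyte-like ratio of these 3, at 2.05 and 10.5 CPM. The interferon-inducible GTPases, which act on membranes of vacuoles that hold pathogens, had a ratio of 0.535 (0.481 to 0.596) in tenocyte-like and 1.23 (1.12 to 1.35) in blood endothelial-like barcodes. Gbp7 had 26.4, 27.8 and 29.6 CPM, Gbp2 20.8, 15.9 and 51.9 CPM, Irgm1 9.05, 11.5 and 56.0 CPM, Igtp 4.25, 5.94 and 39.8 CPM and Gbp3 5.96, 7.35 and 12.6 CPM.

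The make-up of the sham pool moved with these ratios. Sham tenocyte-like barcodes with Xist only stood at 619 CPM (3243 barcodes) and those with Y-linked transcripts only at 163 CPM (532 barcodes), a ratio of 0.263 (0.247 to 0.280) within 1 library. Of 34 genes 29 were at least 2-fold lower in the Y-linked barcodes and 0 higher, beside 2.83% and 3.86% of all genes. Isg15 had 3 UMIs against 501, Ifit1 1.76 against 37.6 CPM and Rsad2 2.72 against 25.4 CPM, while Ifit2 had 23.6 against 25.8 CPM. These genes were named after their values were seen. Median depths were 2225 and 8887 UMIs, and barcodes with neither kind of transcript stood at 587 CPM with a median of 1038 UMIs.

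With only the sham side split, all neurectomy barcodes were set against each part. Against the sham barcodes with Xist only, the ratio in tenocyte-like barcodes was 0.352 (0.340 to 0.364), with 24 of 35 genes 2-fold lower and 0 higher, beside 1.04% and 4.07% of all genes. Against those with Y-linked transcripts only it was 1.34 (1.25 to 1.43), with 0 of 20 lower and 3 higher, beside 1.34% and 3.37%. With Xist only on both sides the ratio was 0.337 (0.324 to 0.349) in tenocyte-like and 0.877 (0.832 to 0.924) in blood endothelial-like barcodes. In tenocyte-like barcodes the direction of the share could not be read. Thinned, 3 or more genes were found in 1.55% of 452 Y-linked-only sham barcodes and in 1.09% (0.682 to 1.64) after neurectomy. The 1.55% lies within the interval after neurectomy, and no interval was taken for it. For 8 or more genes, unthinned, the shares were 1.50% (0.651 to 2.94) and 1.07%. That interval holds the 1.07%, and median depths were unlike, at 8887 and 1939 UMIs. From barcodes of at least 5000 UMIs the level ratios were 0.296 and 1.30. The direction of the level turned likewise in macrophage-like barcodes (0.791 and 1.65), in blood endothelial-like ones (0.849 and 1.16) and over all barcodes (0.661 and 1.45). Stromal fibroblast-like barcodes had 0.439 and 1.06 (0.987 to 1.14). Thinned shares of Y-linked-only sham barcodes lay below those after neurectomy in several classes. They were 0.844% and 1.74% in stromal fibroblast-like, 9.52% and 11.4% in macrophage-like and 9.79% and 10.4% in blood endothelial-like barcodes. Over all barcodes they were 3.17% and 3.73%. In Pi16 fibroblast-like (3.90% and 2.56%) and lymphatic endothelial-like barcodes (2.86% and 1.47%) they lay above, as in tenocyte-like ones. The Y-linked-only thinned shares rest on 77 Pi16 fibroblast-like and 70 lymphatic endothelial-like barcodes. They rest on 237 stromal fibroblast-like, 105 macrophage-like and 194 blood endothelial-like ones. No interval was taken for these shares, so no direction is read from the pairs. Macrophage markers stood at 68.6 CPM in the sham tenocyte-like barcodes with Xist only, 33.7 CPM in those with Y-linked transcripts only and 60.0 CPM in the neurectomy ones with Xist only. The operation and the animals in each pool cannot be told apart in these libraries.

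**Figure D4:**
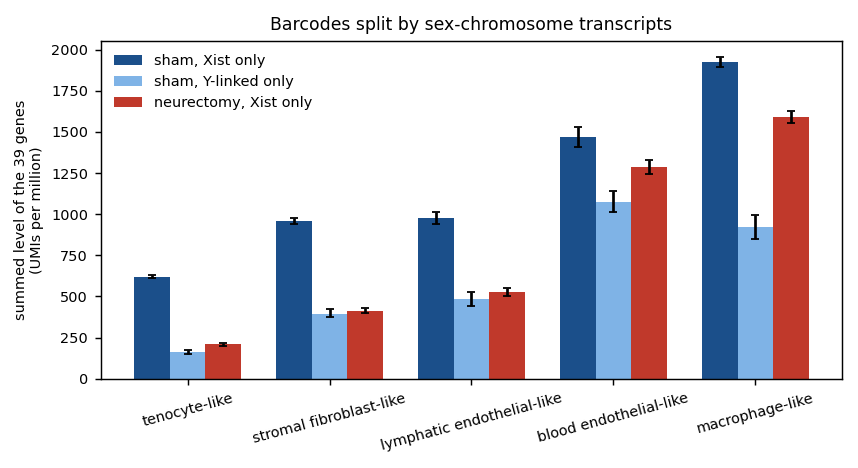
Summed level of the 39 genes (CPM) in 5 tendon classes for sham barcodes with Xist only, sham barcodes with Y-linked transcripts only and neurectomy barcodes with Xist only. Bars are class sums with 95% counting intervals; in tenocyte-like barcodes they stand at 619, 163 and 208.

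In the ganglia blood endothelial-like barcodes were highest, at 6987 CPM (6929 to 7046, 810 barcodes), with 77.9% (74.8 to 80.7) carrying 3 or more genes after thinning. Non-myelinating Schwann-like barcodes, the glia of unmyelinated axons, came next at 4475 CPM (4321 to 4632, 270 barcodes) and 56.6% (50.3 to 62.8). Macrophage-like (1818 CPM), fibroblast-like (1681 CPM), mural-like (1571 CPM) and satellite glia-like barcodes (1554 CPM) followed, the last pair with overlapping intervals, and unclassed barcodes had 1872 CPM. Myelinating Schwann-like barcodes had 982 CPM, neutrophil-like ones 760 CPM and neuron-like ones 340.4 CPM, the lowest. Neuron-like barcodes, the deepest at a median of 48362 UMIs, carried 3 or more genes in 87.1% of cases unthinned and 1.30% thinned, against 16.7% of satellite glia-like ones. No class is known to lack these genes, so no share due to free RNA could be set, and its part in the shares was not tested. In the endothelial gate endothelial markers stood at 9747 CPM and macrophage markers at 37.9 CPM. In the non-myelinating Schwann gate its own markers stood at 4846 CPM, endothelial markers at 29.3 CPM and macrophage markers at 12.6 CPM.

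Of the 38 genes 21 were highest in blood endothelial-like, 8 in non-myelinating Schwann-like and 6 in macrophage-like barcodes, among classes of at least 100 barcodes. Of 19345 other genes 10.5%, 9.61% and 8.06% were highest in these classes. Rsad2 stood at 1226 CPM in blood endothelial-like barcodes against 35 CPM in macrophage-like, 12.6 CPM in non-myelinating Schwann-like and 5.26 CPM in neuron-like ones. Its neighbour Cmpk2, a nucleotide kinase, had 96.2 CPM in the endothelium and 24.2 CPM in neuron-like barcodes. Rsad2 was thus set apart in endothelium, whereas Isg15 was spread over vessel, non-myelinating Schwann-like and satellite glia-like barcodes. Isg15 had 823 CPM in endothelial-like, 569 CPM in non-myelinating Schwann-like, 484 CPM in mural-like, 369.6 CPM in satellite glia-like and 9.82 CPM in neuron-like barcodes. Ifit1 had 395 CPM in endothelial-like, 354 CPM in non-myelinating Schwann-like and 48.1 CPM in neuron-like barcodes. Highest in non-myelinating Schwann-like barcodes were the GTPase genes Gbp2 (554 CPM), Irgm1 (452 CPM) and Gbp7 (247 CPM), and Ifit3 (273 CPM).

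Ifi203 divided the classes, with 487 CPM in endothelial-like, 302 CPM in mural-like and 255 CPM in macrophage-like barcodes but 2.79 CPM in non-myelinating Schwann-like and 0.543 CPM in satellite glia-like ones. Non-myelinating Schwann-like and satellite glia-like barcodes were therefore low in Ifi203 while high in Isg15. Macrophage-like barcodes led for Bst2 (517 CPM) and Ifi204 (131 CPM), and satellite glia-like barcodes for Mx2 (76.2 CPM). The genes named in the ganglia were chosen after their values were seen.

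**Figure D5:**
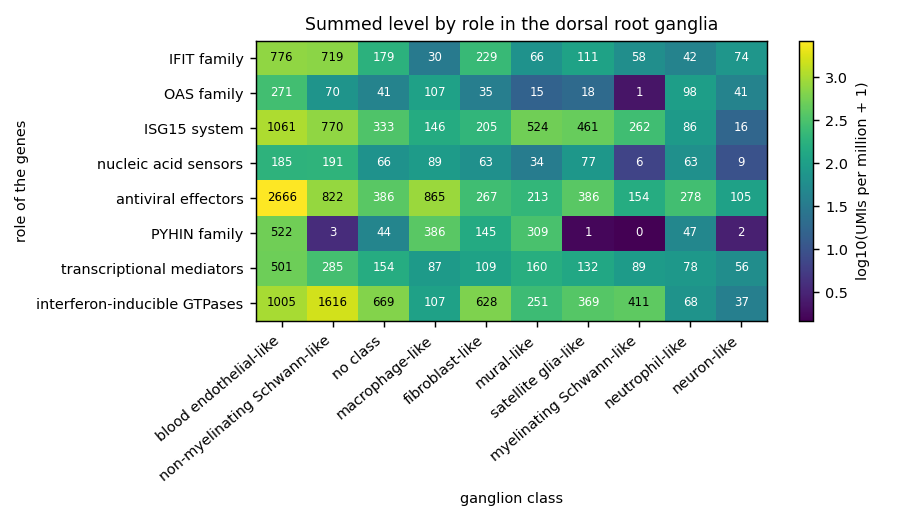
Summed level of each role (rows) in each ganglion class (columns), written in CPM and coloured on a log10 scale. The 12 effectors summed to 2666 in blood endothelial-like and the 5 GTPases to 1616 in non-myelinating Schwann-like barcodes. Roles hold unequal numbers of genes, so sums are read across classes, not between roles.

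Vector transcripts were found in 10.6% of neuron-like barcodes (357). These stood at 337 CPM (328 to 345) for the 38 genes and the 3014 without at 341 CPM (338 to 344), with overlapping intervals and thinned shares of 1.68% and 1.25%. The 45 fibroblast-like barcodes with vector transcripts stood higher, at 2260.3 CPM (2043 to 2494) against 1664 CPM (1632 to 1697) without. The 22 satellite glia-like ones with vector transcripts stood lower, at 1271 CPM (1091 to 1472) against 1556 CPM (1540.3 to 1571). Their thinned share lay the other way, at 22.7% against 16.6%, while that of fibroblast-like barcodes was 22.2% against 14.3%. Few barcodes with vector transcripts stand behind these values, and the intervals count UMIs, not barcodes.

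The rest of the pathway was read from lists by role. Of 9 interferon ligand genes 3 had any UMI in each tendon library, 24 UMIs in all after neurectomy and 30 after sham, so no difference in ligands was detectable at this depth. Ifng had 12 and 12 UMIs and Ifnb1 8 and 11, beside 186 and 33 in the ganglion library, which held more UMIs. In the neurectomy, sham and ganglion libraries Ifng stood at 0.154, 0.0932 and 0.786 CPM. Ifnb1 stood at 0.103, 0.0854 and 0.139 CPM, with overlapping intervals. Counts in the lists are read beside the 1.36% of all genes that were 2-fold lower and 2.43% higher in tenocyte-like barcodes, near which a list with 0 called does not stand out. There 5 of 6 receptor genes passed and 0 were 2-fold lower, with Ifnar2 at 77.8 and 76.5 CPM and Ifngr1 at 96.2 and 82.6 CPM after neurectomy and sham. All 9 signal transducers passed and 0 were 2-fold lower, with Jak1 at 296 and 271 CPM and Irf1 at 123 and 76.3 CPM. Of 6 nucleic acid sensing genes that passed 0 were 2-fold lower, with Tbk1 at 31.3 and 29.7 CPM and Rigi at 18.4 and 26.9 CPM. Of 6 negative regulators 1 was, Usp18, also among the 39, while Socs3 had 291 and 209.7 CPM and Pias1 65.8 and 68.7 CPM. Of 35 other interferon-induced genes 29 passed and 6 were 2-fold lower, with a median log2 ratio of -0.39, and its most abundant, Ifitm3, which blocks viral fusion, and Ifi27, had 358 and 346 CPM and 111 and 134 CPM. In each of these lists 0 genes were 2-fold higher.

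Over 20 tendon profiles, 1 for each of the 9 classes and the unclassed barcodes in each library, 30 of the 39 genes had a Pearson correlation above 0.5 with the sum of the others, with a median of 0.70. Of 18566 other genes 15.9% were above 0.5 with the sum of the 39, and their median was 0.11. The profiles share libraries and depth, so this is a description. Ifit2 (-0.09) followed the sum least, then Ifi204 (0.19), Ifit3 (0.25), Zbp1 (0.26) and Lgals3bp (0.26), and Ddx60 (0.92), Rtp4 (0.89) and Trim30a (0.89) followed it most. Outside the 39 the profiles most like their sum were those of Psmb9 (0.92), Psmb8 (0.91), Tap1 (0.90), Sp110 (0.90), Rnf213 (0.89), Parp9 (0.88), Gripap1 (0.88), Dtx3l (0.87), Ifi47 (0.87) and Zfp384 (0.87). Of these Psmb9, Psmb8 and Tap1 serve antigen presentation.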

How the data were processed

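10x matrices of UMI counts were deposited for 3 libraries, and per the file headers Cell Ranger 8.0.1 wrote them. The deposited counts are whole numbers and were not normalized by the authors. The genome build behind each library is not given in the sources used here. Barcodes under 500 genes or above 15% mitochondrial UMIs were removed. A class needed at least 3 distinct markers (5 for neurons) and marker UMIs at 3 times the expected number (1.5 times for mesenchymal classes and glia), thresholds set after seeing the data. No doublet caller was run, and 11.0%, 20.3% and 8.09% of neurectomy, sham and ganglion barcodes passed a second gate and were left out in an alternative. Member UMIs were summed by class and divided by class UMIs. Intervals (95%) are exact Poisson for levels, exact conditional for ratios and Clopper-Pearson for shares. A gene was compared from 50 UMIs over both libraries. In each class comparison the 5 lowest and 3 highest ratios were named, and in each role the 3 most abundant genes. The genes, lists and rules were chosen with earlier results of these data known. Python 3.11.15, NumPy 2.4.6, SciPy 1.17.1, pandas 2.3.3 and matplotlib 3.10.9 were used, and the ratio code was tested on simulated data. Depth after filtering was a median of 1348, 1338 and 3524 UMIs a barcode.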

Additional observations from a re-analysis of the deposited data

Results flagged for a closer look

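Some ratios of neurectomy to sham lay on opposite sides of 1 in different tendon classes, and the difference between classes was not tested, as each group is 1 library. The blood endothelial-like ratio of all 39 genes itself went below 1 in some alternatives, to 0.980 without barcodes of a second gate and 0.849 against sham barcodes with Xist only. All 39 genes together had a ratio of 1.05 in blood endothelial-like and 0.401 in tenocyte-like barcodes. Nucleic acid sensors had 1.21 in macrophage-like and 0.486 in tenocyte-like barcodes. Antiviral effectors had 1.07 in blood endothelial-like against 0.408 in tenocyte-like barcodes. The PYHIN genes had 2.04 in synovial lining-like, 1.19 in macrophage-like and 0.544 in tenocyte-like barcodes. The synovial lining-like barcodes differed between the libraries in depth, second-gate share and tenocyte markers, and the part of this was not tested. Transcriptional mediators stood at 1.17 and interferon-inducible GTPases at 1.23 in blood endothelial-like barcodes, against 0.602 and 0.535 in tenocyte-like ones.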

How the results depend on the processing

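No paired analysis was possible because each group is 1 library, and for the same reason no replicate was left out. The part of the sham pool compared changed most: with sham barcodes carrying Y-linked transcripts only, the level ratio turned to 1.34 in tenocyte-like, 1.06 in stromal fibroblast-like, 1.65 in macrophage-like, 1.19 in Pi16 fibroblast-like, 1.08 in lymphatic endothelial-like and 1.45 in all barcodes, and was 1.16 in blood endothelial-like ones. With Xist only it was 0.352, 0.439, 0.791, 0.661 and 0.849 in tenocyte-like, stromal fibroblast-like, macrophage-like, all and blood endothelial-like barcodes. With Xist only on both sides, added after seeing the data, it was 0.337, 0.432, 0.827, 0.647 and 0.877 in the same order. Both splits at 5000 UMIs or more were added after seeing the data. With Y-linked transcripts only they gave 1.30 (tenocyte), 0.956 (stromal fibroblast), 2.03 (macrophage), 1.19 (Pi16 fibroblast), 1.10 (lymphatic), 1.44 (blood endothelial) and 1.42 (all), and with Xist only 0.296, 0.384, 0.875 and 0.581 in tenocyte-like, stromal fibroblast-like, blood endothelial-like and all barcodes. From 5000 UMIs alone the ratios were 0.352, 0.453, 1.15, 0.939 and 0.673 in tenocyte-like, stromal fibroblast-like, blood endothelial-like, macrophage-like and all barcodes. Without barcodes of a second gate they were 0.523, 0.657, 0.980, 0.855 and 0.783 in the same order. At most 5% mitochondrial UMIs gave 0.381, 0.494 and 0.724 for tenocyte-like, stromal fibroblast-like and all barcodes. A mean over barcodes gave 0.572, 0.773, 0.927 and 0.868 for tenocyte-like, stromal fibroblast-like, macrophage-like and all barcodes. Without GTPases, Lgals3bp and Bst2 the tenocyte-like ratio was 0.370 and the stromal fibroblast-like ratio 0.486. The ratio of shares with 3 or more genes was 0.622 (Xist only, unthinned), 0.647 (Y-linked only, unthinned) and 0.256 (whole sham, thinned) in tenocyte-like barcodes. It was 1.03, 0.708 and 0.382 for 2, 5 and 8 or more genes, the last added after seeing the data. Over all barcodes it was 0.533, 0.464 and 0.630, then 0.877, 0.640 and 0.552, with 0.706 at 5% mitochondrial UMIs. From 5000 UMIs it was 1.01 over all, 1.07 in stromal fibroblast-like and 1.01 in macrophage-like barcodes, turning above 1. The Y-linked-only sham barcodes of the unthinned ratios were deeper than those after neurectomy. Median depths were 8887 against 1939 UMIs in tenocyte-like and 5112 against 1348 UMIs in all barcodes. Thinned, the share over all barcodes was 3.17% in Y-linked-only sham barcodes and 3.73% after neurectomy, beside the unthinned ratio of 0.464. No interval was taken for the 3.17%, so no direction is read from the thinned pair. In the ganglia, with alternatives added after seeing the data, non-myelinating Schwann-like barcodes had 3205 CPM with 1 more marker, 3012 CPM from 5000 UMIs, 4686 CPM at 5% mitochondrial UMIs and 4802 CPM without a second gate, and blood endothelial-like barcodes 7051 and 7497 CPM under the last 2. The cause of these shifts was not tested.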
